A study of Homo sapiens with 2 samples.

Results

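The sites described here are 1625 RBMS3 crosslinking sites in annotated 3′UTRs, more than 100 nt upstream of the next annotated transcript end and without a canonical poly(A) signal beside them. An annotated end just upstream, or a coding transcript over the same base, did not bar a site. They were chosen by measured values and by position. From the 27706 sites of the deposited list, 21230 lay in a same-strand 3′UTR of GENCODE release 44. Of these, 18490 had the deletion in under 30% of their tags, and 4400 of those lay more than 100 nt upstream of the next annotated 3′ end of the same gene. Removing the 2775 sites with AATAAA or ATTAAA within 25 nt on either side left the 1625, which made up 5.87% of the list and lay in 839 genes.

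FLAG-tagged RBMS3 was expressed in MDA-MB-231 (a human breast cancer cell line of the triple-negative type), and its RNA contacts were mapped by CLIP-seq after ultraviolet crosslinking and recovery with anti-FLAG beads. There was 1 group of 2 biological replicates, both expressing the tagged protein, so the map is of a tagged and introduced protein rather than of endogenous RBMS3. The title of replicate 2 names MDA-MB-231, but MDA-MB-232 stands in its source and cell line fields, and the title was followed. The authors called the sites on the pooled tags of both replicates, so no value has an error between replicates, no control library was analysed here, and every comparison below is a description with no test.

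RBMS3 is an RNA-binding protein with RNA recognition motifs that bind AU-rich sequence. The 3′UTR, the stretch between the stop codon and the poly(A) tail, carries many of the elements that set the stability and translation of an mRNA. A poly(A) signal is the hexamer that directs cleavage of the transcript a short way downstream of it, and a long 3′UTR can hold several such signals used in different cells. In CLIP-seq, reverse transcriptase can skip a base where a remnant of the protein is still attached, and the base lost in the read marks the contact.

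The sequences below are those of the 10 members with the most deletions, shown because they hold the best-sampled crosslinks, followed by the 5 with the highest deletion percentage among the 379 members with at least 100 deletions. Each runs 5′ to 3′ on the transcript strand over 29 nt of hg38, with the listed deleted base at its centre, and capitals mark the run of identical bases that holds the deletion.
SERINC3, chr20:44499922-44499950, minus strand: atgcttaatataTTTatattgcagtatcc
CALU, chr7:128770506-128770534, plus strand: gaccatggcttaccTTTcctgcctttgac
GPX8, chr5:55164859-55164887, plus strand: tatataaatagtcaTTTataaatgaccgt
CDK4, chr12:57748255-57748283, minus strand: ttggggtccTTTTTTatacaggaaaaaca
RHEB, chr7:151466763-151466791, minus strand: tactattaactaggCttcagtatatcagt
IGFBP7, chr4:57031127-57031155, minus strand: tatctacaaaaaTTTattatatatttaca
CALU, chr7:128770544-128770572, plus strand: cccatttcctcctcTTTccctctccccgc
CALU, chr7:128770515-128770543, plus strand: ttacctttcctgccTTTgacccatcacac
CANX, chr5:179730616-179730644, plus strand: cctttccagggttaTTTagtaaagtttgt
TIMP3, chr22:32861127-32861155, plus strand: tcagttcattccacTTTaggaaacagagc
SPCS3, chr4:176329030-176329058, plus strand: cgttcctttatagcTTTgtactttttttt
RRM1, chr11:4138527-4138555, plus strand: aatgatgataatgaTTTTTTTTTTaaact
CAPRIN1, chr11:34102028-34102056, plus strand: aaaatatggaaaagTTTTTTTTcaatcat
NEGR1, chr1:71404672-71404700, minus strand: cccctaTTTTTTTTTaaagaaggaagaaa
SPOP, chr17:49599297-49599325, minus strand: aaTTTTTTTTTTTTTgaaaatataaataa

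Of the 10 members with most deletions, 8 had the deletion in a run of exactly 3 T. The site with the most deletions lay in SERINC3, which encodes a multipass membrane protein, with 1222 deletions in 48200 tags (2.54%, 95% Wilson interval 2.40 to 2.68%), 2495 nt upstream of the next annotated end. In CALU, which encodes the calcium-binding endoplasmic reticulum protein calumenin, the leading site had 1052 deletions in 53316 tags (1.97%, interval 1.86 to 2.09%). These intervals cover counting error only, since the 2 replicates were pooled and tags are not separate cells. The bases touching the run differ between the pair, with A on either side in SERINC3 and C on either side in CALU. Farther out, both printed windows hold every base.

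GPX8, which encodes a glutathione peroxidase family member of the endoplasmic reticulum, had 967 deletions in 26330 tags (3.67%, interval 3.45 to 3.91%). The deletion lay in a run of 3 T that the hexamer TATAAA overlaps. CDK4, the G1 cyclin-dependent kinase, had 947 deletions in 17241 tags (5.49%, interval 5.16 to 5.84%) in a run of 6 T, the highest percentage of the 10. RHEB, the small GTPase that activates mTORC1, had 946 deletions in 39091 tags (2.42%, interval 2.27 to 2.58%) at a lone C, the only member of the 10 without a deleted T.

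The remaining genes of the 10 encode secreted or endoplasmic reticulum proteins. IGFBP7, a secreted protein that binds insulin-like growth factors, had 915 deletions in 56775 tags (1.61%, interval 1.51 to 1.72%). CANX, the lectin chaperone calnexin, had 851 deletions in 29894 tags (2.85%, interval 2.66 to 3.04%). TIMP3, an inhibitor of matrix metalloproteinases, had 778 deletions in 15853 tags (4.91%, interval 4.58 to 5.25%). The 2 further CALU sites had 883 deletions in 42602 tags (2.07%, interval 1.94 to 2.21%) and 866 in 51585 tags (1.68%, interval 1.57 to 1.79%).

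At the members with high percentages, the deletion fell in T runs of 3 to 13 bases and in far fewer tags. SPCS3, a subunit of the signal peptidase complex, led with 122 deletions in 586 tags (20.8%, interval 17.7 to 24.3%) in a run of 3 T. RRM1, the large subunit of ribonucleotide reductase, followed with 112 in 664 (16.9%, interval 14.2 to 19.9%) in a run of 10 T. CAPRIN1, an RNA-binding protein of stress granules, had 174 in 1117 (15.6%, interval 13.6 to 17.8%) in a run of 8 T.
NEGR1, a neuronal cell adhesion protein, had 140 deletions in 916 tags (15.3%, interval 13.1 to 17.8%) in a run of 9 T. SPOP, a substrate adaptor of a cullin ubiquitin ligase, had 257 in 1926 (13.3%, interval 11.9 to 14.9%) in a run of 13 T, the longest of the 5.

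Across the 1625 sites, depth varied widely. The number of tags had a median of 3308 (quartiles 1254 and 7990, range 110 to 63980), and the number of deletions a median of 61 (quartiles 47 and 94, range 32 to 1222). The deletion percentage, which the choice of sites used, had a median of 2.42% (quartiles 1.15 and 4.95%, range 0.0888 to 29.9%). It was under 1% at 357 sites, 1 to 5% at 865, 5 to 10% at 235 and 10 to 30% at 168. No member had fewer than 32 deletions, so a low percentage could be listed only at a deeply covered site, and the median number of tags fell across these classes from 13383 to 287.5. The internal sites that do have a signal were covered by a median of 5530 tags, and the end-proximal sites with AATAAA by 7966.

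**Figure D1:**
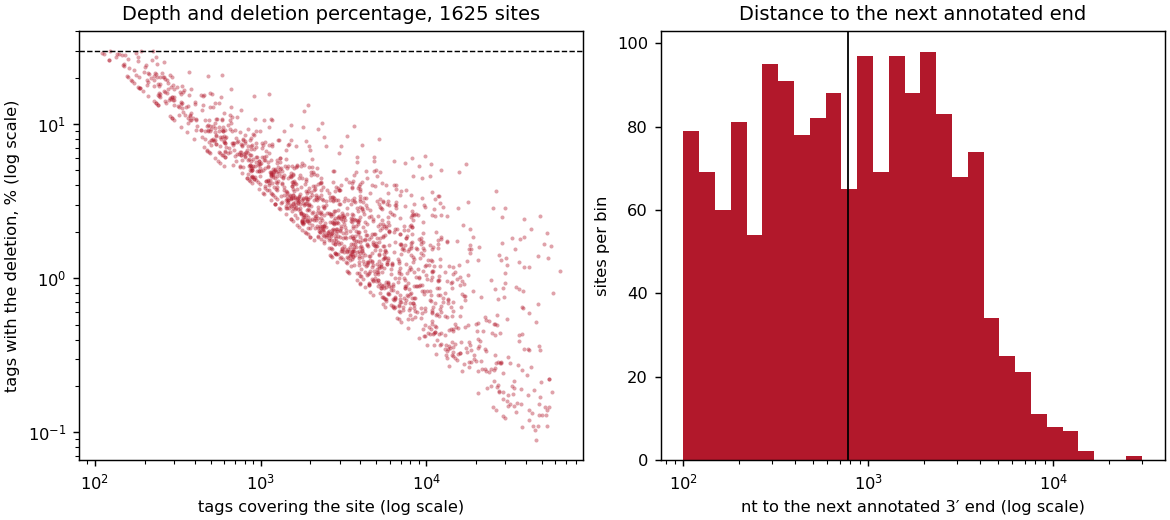
Left, tags covering each of the 1625 sites against the percentage of tags with the deletion, both on log scales, with 1 point per site and the 30% limit as a dashed line. Right, the number of sites per bin of distance to the next annotated 3′ end on a log axis, with the median of 780 nt as a vertical line. The sharp lower left edge of the points follows from the minimum of 32 deletions.

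The limits of the rule cut through continuous values. Just under 30% were NAA25, a subunit of an N-terminal acetyltransferase, with 67 deletions in 224 tags (29.9%, interval 24.3 to 36.2%), and PLA2G12A, a secreted phospholipase, with 37 in 124 (29.8%, interval 22.5 to 38.4%). Just over it were TTLL7, a tubulin polyglutamylase, with 32 in 105 (30.5%, interval 22.5 to 39.8%), and PTP4A2, a tyrosine phosphatase, with 51 in 167 (30.5%, interval 24.1 to 37.9%). All 4 intervals include the limit. At the distance limit, MAP1B, a microtubule-associated protein, and SLC39A14, a zinc and iron transporter, were inside at 101 nt, whereas TXNDC9, a thioredoxin domain protein, was outside at 100 nt, as was a site of ENSG00000271741.

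The members were spread over the length of long 3′UTRs. The distance to the next annotated end had a median of 780 nt (quartiles 308 and 1993), bounded below by the rule at 101 nt. It was up to 200 nt at 257 sites, 200 to 500 nt at 366, 500 to 1000 nt at 295, 1000 to 2000 nt at 301, 2000 to 5000 nt at 330, and more at 76. The farthest member was in FLRT2, which encodes a membrane protein of cell adhesion and repulsion, 26530 nt from an end, with 115 deletions in 8122 tags (1.42%, interval 1.18 to 1.70%). The canonical 3′UTRs of member genes had a median length of 2805 nt, against 1600 nt for the genes with any 3′UTR site under 30%, and a longer 3′UTR has more positions that can meet the rule.

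In all, 1579 members (97.2%) were in the 3′UTR of the gene's canonical transcript. When that 3′UTR was divided into 3 equal parts, 661 were in the part next to the stop codon (41.9%), 444 in the middle part (28.1%) and 474 in the last (30.02%). The rule bars the 100 nt before each annotated end, which always takes positions from the last part. These shares are thus partly set by the rule, and the qualifying positions in each part were not counted. A further measure of how firmly the sites are internal to a 3′UTR is what other transcripts hold there. At 33 members (2.03%) the same base was coding in another transcript, and 30 (1.85%) were in 3′UTRs only of transcripts not typed as protein-coding, such as targets of nonsense-mediated decay. Within the 100 nt just downstream of an annotated end of the gene there were 181 members (11.1%).

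The deleted base was T, uridine in the RNA, at 1248 members (76.8%, Wilson interval 74.7 to 78.8%, treating sites as independent). A was deleted at 193 (11.9%), C at 98 (6.03%) and G at 86 (5.29%). To show what the sequence of these 3′UTRs offers, every position of the member genes' 3′UTRs that meets the distance and signal parts of the rule was enumerated, 3048698 in all, and T made up 31.5% of them. T was deleted at 64.5% of the internal sites with a signal, 74.5% of the end-proximal sites without one and 58.9% of the end-proximal sites with AATAAA. The last class has the A-rich hexamer in every window by its definition.

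Most of the deleted T lay in runs. The deletion lay in a run of 3 or more T at 978 members (60.2%), compared with 10.2% of the qualifying positions, and 587 members (36.1%) were in runs of exactly 3. Of the end-proximal sites without a signal, 56.3% had the deletion in a run of 3 or more T. An alignment cannot tell which base of a run was lost, and all 1428 members in runs of identical bases were listed at the lowest coordinate of the run. Among the 197 members whose base differed from both neighbours, T was deleted at 59 (29.9%) and C at 73 (37.1%), beside 27.2% T and 22.0% C at the qualifying positions of that kind. The median deletion percentage was 0.858% at 59 members with a lone T, 1.11% at 211 with 2 T, 3.02% at 587 with 3, 2.997% at 184 with 4, 3.43% at 181 with 5 to 7 and 8.65% at 26 with 8 or more. A longer run gathers the deletions of more bases at 1 coordinate, and the part of this in the order was not tested.

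Uridine was more frequent at 2 nt than at 1 nt on either side of the deletion, an order that the listing of runs helps to set. Its share was 53.7% at 2 nt upstream, 42.7% at 1 nt upstream, 76.8% at the deletion, 48.4% at 1 nt downstream and 60.9% at 2 nt downstream. Because runs were listed at their lowest coordinate, they extend downstream on the plus strand and upstream on the minus strand, and 870 members were on the plus strand. Next to a deleted T, the base on the side away from the run is never T. With both strands pooled, this lowers the uridine share at 1 nt on both sides, so the dips there are no evidence of a spacing. Farther out, adenine made up 32.0% of bases 6 to 25 nt upstream, 36.1% at 6 to 25 nt downstream and 37.9% at 26 to 50 nt downstream, beside 28.2% at the qualifying positions. Adenine was thus higher downstream of these sites than upstream. The rule bars the A-rich signals within 25 nt on either side but not at 26 to 50 nt. The part of this in the share at 26 to 50 nt was not tested. The 28.2% is the share at the positions themselves, not in stretches downstream of them.

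**Figure D2:**
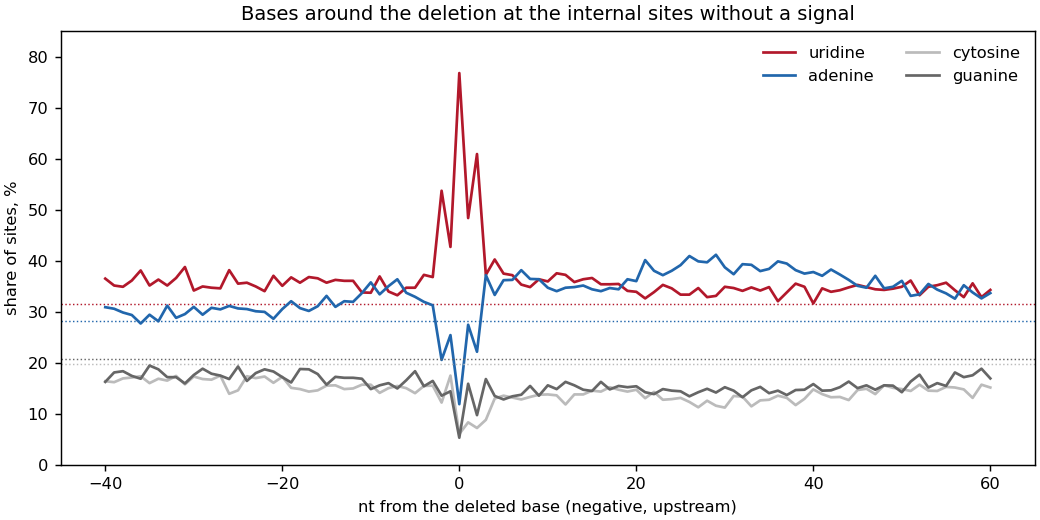
Share of the 1625 sites with each base, in %, from 40 nt upstream to 60 nt downstream of the deleted base. Solid lines are the sites, dotted lines of the same colour the share of that base over all 3048698 qualifying positions. Uridine reaches 76.8% at the deletion, and adenine rises downstream. The rule bars AATAAA and ATTAAA only within 25 nt of the deletion.

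The AUA pattern, in which A, G or T is followed by A or T, then ATA, then A or T, then A, was present within 25 nt of 407 members (25.05%, Wilson interval 23.0 to 27.2%, treating sites as independent). It was searched on the transcript strand only, as were all motifs below. It was present in 6.15% of the windows around qualifying positions, a ratio of 4.08, and the ratio was 3.90 when each member was set against its own gene. Barring AATAAA from the window takes away the forms of the pattern that end in it, in members and positions alike. The end-proximal sites without a signal held it at 22.9%. It stood at 68.1% of the internal sites with a signal and 80.7% of the end-proximal sites with AATAAA, where the signal itself can form the pattern.

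In members the commonest forms were ATATAAA in 106 windows, TTATAAA in 92, AAATATA in 89 and TTATATA in 64. ATATATA and TAATATA followed with 50 each, then GTATAAA with 40, GAATATA with 32 and GTATATA with 29. The pattern was the shared feature of all 4 IGFBP7 sites with the most deletions, where tags ran from 54714 to 63980 and deletions from 122 to 915. In SERINC3 it lay beside 8 of 15 members, and in CALU beside none of 20. Members with the pattern had a median deletion percentage of 2.36% (n = 407), and those without it 2.42% (n = 1218).

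Other AU-rich words stood above the qualifying positions as well. ATATA, the core of several forms of the pattern, was in 19.8% of member windows and 6.98% of position windows, and 298 members held both it and the pattern. The AU-rich element core ATTTA was in 27.1% against 10.8%, while the longer nonamer TTATTTATT was in 5 members only (0.308% against 0.216%). TGTANATA, the Pumilio motif, was in 63 members (3.88% against 0.938%, a ratio of 4.13), and it can overlap the pattern where N is A or T. TTTTT was in 27.9% against 18.2%, AAAAA in 23.8% against 12.1%, and TGTGT, a GU-rich word, in 10.4% against 8.11%, the smallest ratio of these at 1.28. Most of these words were not particular to the members. The end-proximal sites without a signal held more ATATA (21.4%), TTATTTATT (0.513%), TGTANATA (5.41%), TTTTT (29.6%) and TGTGT (14.1%). They held less ATTTA (20.5%) and AAAAA (18.7%). AAAAA was, however, at 28.5% of the internal sites with a signal, 25.7% of the end-proximal sites with AATAAA and 23.8% of all listed sites. The members thus held less AAAAA than either class with a signal, and about as much as the whole list.

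Of 81 hexamers found in at least 100 member windows, 48 had a ratio over 2 and 1 a ratio under 1. That minimum was set on the members only, so a hexamer rare in members could not enter. The scarcity of ratios under 1 is therefore largely fixed by the minimum and is no result. The 10 with the highest ratios were TATAAA (4.68), AATATA (4.25), ATAAAT (4.11), ATATAA (4.03), TATTTA (3.74), TAAATA (3.73), TTATAT (3.73), ATTATA (3.65), TATATT (3.60) and ATAAAA (3.56). These hexamers overlap one another and hold only A and T. Against all listed sites, ATAAAT (8.31% against 17.6%), TAAATA (9.11% against 15.8%) and ATAAAA (8.55% against 22.5%) were less frequent in members. The rest of the 10 were more frequent. TATAAA was in 247 member windows (15.2%, against 3.25% of position windows) and AATATA in 186 (11.4% against 2.69%). Both are also weak variants of the poly(A) signal.

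Windows without AATAAA and ATTAAA could thus still hold a weaker poly(A) signal. At least 1 of 11 such variants was present beside 846 members (52.1%), against 22.4% of the position windows and 49.0% of the end-proximal sites without a signal. Beyond the pair just given, AAGAAA was in 130 member windows (8% against 4.53%), AGTAAA in 103 (6.34% against 2.09%) and AATGAA in 53 (3.26% against 2.83%). The other 6 were CATAAA in 66 (4.06% against 1.75%), GATAAA in 56 (3.45% against 1.62%), AATACA in 79 (4.86% against 2.28%), AATAGA in 43 (2.65% against 1.59%), ACTAAA in 46 (2.83% against 1.95%) and AATAAT in 70 (4.31% against 2.57%). All 11 were above their share of the positions, AATGAA least. Against all listed sites, AATGAA (4.25% there) and AATAAT (6.28% there) were less frequent in members, and the rest were more frequent. TATAAA and AATATA are at the same time parts of the AUA pattern, so the data cannot tell the 2 readings of these letters apart.

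Downstream of many members lay features that also mark transcript ends or that an oligo(dT) primer can pair with. These were searched after values had been seen. At least 6 A in a row lay wholly within the 50 nt downstream of 414 members (25.5%), called an A-run below, against 4.80% of the qualifying positions, 16.0% of the end-proximal sites without a signal and 10.9% of the internal sites with one. AATAAA or ATTAAA ended 26 to 80 nt downstream of 553 (34.0%), against 7.97% of the positions and 55.8% of the end-proximal sites without a signal. Both were present at 93 members, the A-run alone at 321 and the signal alone at 460. The library was made with a poly(A) tail added to the RNA and with oligo(dT) capture and priming, and the part of these steps in the list was not tested.

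The stretches that follow show these features for members printed above. Each is 30 nt of hg38 on the transcript strand, and capitals mark the A-run or the first signal past the window.
SERINC3, chr20:44499898-44499927, minus strand: gtatcctttaaaagcAAAAAAAAAAAAAtg
CALU, chr7:128770562-128770591, plus strand: cctctccccgctgccAAAAAAAAAAAAAAA
TIMP3, chr22:32861162-32861191, plus strand: ttgaaacagaagaagAAAAAAAAAAAAAgc
RHEB, chr7:151466713-151466742, minus strand: tgtatacttgtaAATAAAatagctgcaaac
IGFBP7, chr4:57031090-57031119, minus strand: agcatgcatatcATTAAAcaaataaaatac
The A-run has 13 bases and starts 24 nt downstream of the SERINC3 deletion, has 15 and starts 19 nt downstream of the second CALU site printed, and has 13 and starts 36 nt downstream of the TIMP3 deletion. The signal starts 47 nt downstream in RHEB and 34 nt downstream in IGFBP7, where an AATAAA left in lower case follows it.

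**Figure D3:**
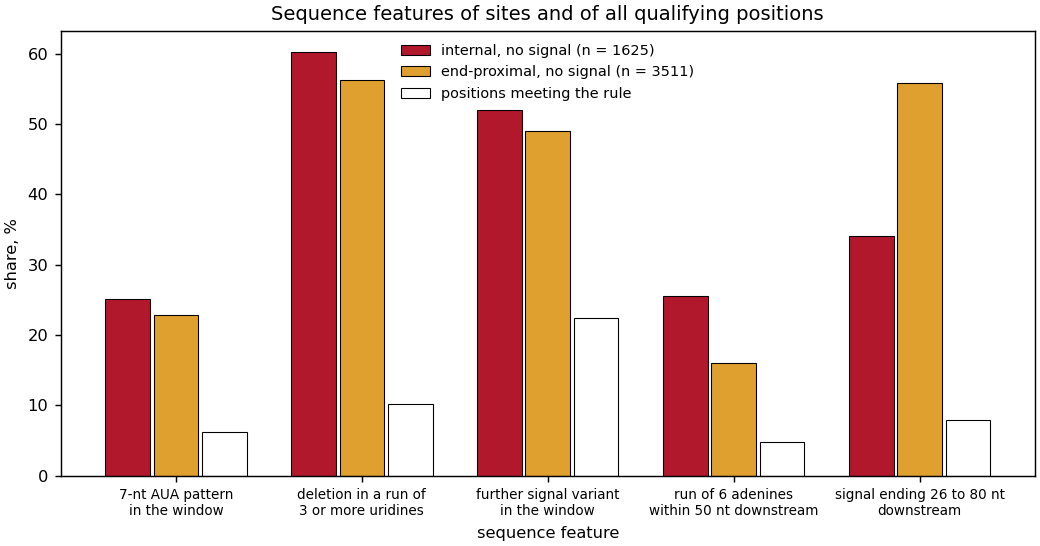
Share, in %, of the 1625 internal sites without a signal, of the 3511 end-proximal sites without a signal and of the 3048698 positions that meet the distance and signal parts of the rule that hold each of 5 sequence features. The A-run is at 25.5% of the internal sites and 16.0% of the end-proximal ones, and the downstream signal at 34.0% and 55.8%.

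Members with an A-run were covered more deeply and carried the deletion in a smaller share of tags. Their median was 4968.5 tags (quartiles 2129.5 and 11251) and 1.81% deletions, against 2830 tags (quartiles 1070.5 and 6769.5) and 2.67% for the 1211 members without one. The ranges overlap almost fully. By class of deletion percentage, the A-run was at 34.2% of members under 1%, 26.5% at 1 to 5%, 15.7% at 5 to 10% and 15.5% at 10 to 30%. By distance to the end the share had no steady order. It was 22.6% up to 200 nt, 24.3% at 200 to 500 nt, 25.8% at 500 to 1000 nt, 24.3% at 1000 to 2000 nt, 33.0% at 2000 to 5000 nt and 11.8% at the 76 members beyond. The downstream signal was at 42.4%, 37.2%, 34.9%, 31.6%, 28.2% and 22.4% in the same order.

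Neither feature was present at 751 members (46.2%). The AUA pattern was beside 258 of these (34.4%), and beside 149 of the 874 with an A-run or a downstream signal (17.05%). This split was not made for the qualifying positions, and an A-run starting within 25 nt takes up part of the motif window. Leaving out those of the 751 with a further signal variant in the window left 246 members (15.1%). By class of deletion percentage, the pattern was at 28.0% of members under 1%, 24.4% at 1 to 5%, 27.7% at 5 to 10% and 18.5% at 10 to 30%. The deleted T was at 52.9%, 83.8%, 85.5% and 79.2% in the same order, so the lowest class, with the deepest coverage, stood apart in its deleted base.

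**Figure D4:**
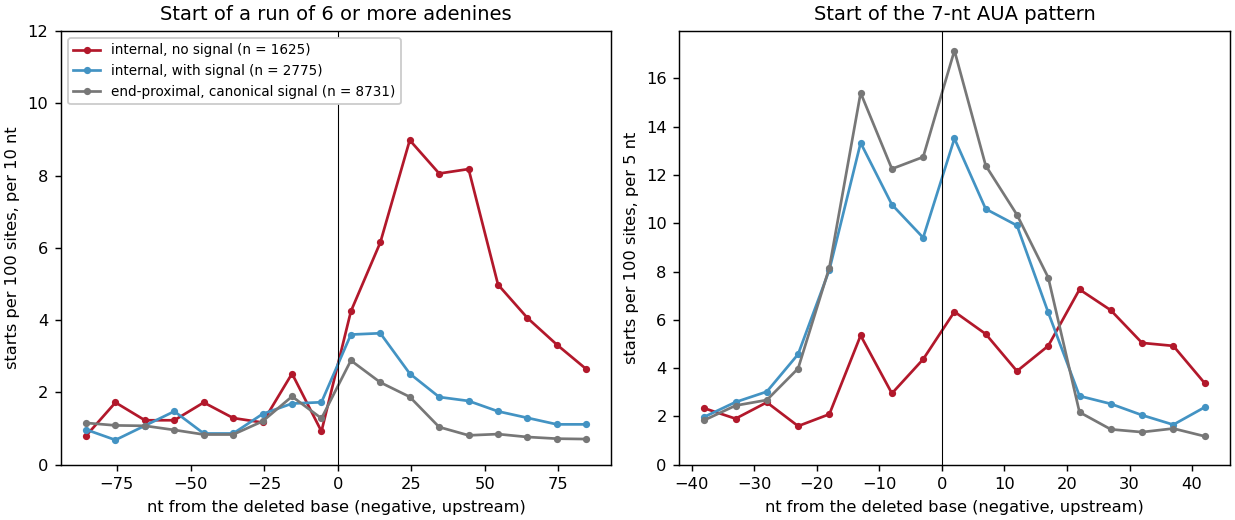
Starts of a run of 6 or more adenines, per 10 nt (left), and of the 7-nt AUA pattern, per 5 nt (right), per 100 sites, against distance from the deleted base. Red is the 1625 internal sites without a signal, blue the 2775 internal sites with one, grey the 8731 end-proximal sites with AATAAA. In red, A-run starts reach 8.98 per 100 sites at 20 to 29 nt downstream, and AUA pattern starts 7.26 at 20 to 24 nt downstream, where the signal that the rule bars within 25 nt can again form the pattern.

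Members came in groups, as did the other 3′UTR sites, and less closely. The median distance to the nearest listed site was 17 nt for members and 9 nt for internal sites with a signal. It was 11 nt for end-proximal sites without a signal and 6 nt for those with AATAAA. Another listed site lay within 50 nt of 1147 members (70.6%), and at 396 (24.4%) such a neighbour had a signal in its own window. Joining members within 50 nt of each other gave 990 clusters, of which 686 held a single member, and 304 held several. Of the 839 genes, 509 had 1 member, 68 had 5 or more, and 122 had at least 2 clusters. Sites of a cluster can share tags and overlap in their windows, so they are not separate observations.

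CALU held the most members, 20 in 4 clusters of its 4236-nt canonical 3′UTR. The largest cluster of the set lay at chr7:128770495-128770567 (plus strand), where 14 members in 73 nt had 32711 to 55257 tags, 0.110 to 2.07% deletions and 4608 deletions in total. No member of it was beside the AUA pattern, 8 had a deleted T, and 6 had at least 6 bases of the A-run printed above within 50 nt. The other clusters held 4, 1 and 1 members with 890 to 12912 tags, far fewer than the 14. At the other CALU sites under 30%, 4 internal with a signal and 10 end-proximal, the maximum was 282 deletions, below the 1052 of its leading member.

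SERINC3 held 15 members in 3 clusters, 1814 to 2552 nt from the next end. The first cluster held 11 in 94 nt with 2527 to 49558 tags and 2667 deletions, 8 of them beside the AUA pattern and 9 with at least 6 bases of the A-run within 50 nt downstream. Both features were thus present at 1 place. The other clusters held 3 members with 2658 to 3976 tags and 1 with 3603 tags.

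CANX held 12 members in 5 clusters, with 1470 to 29894 tags. The densest was a cluster of 8 members in 36 nt, 275 to 310 nt from the next end, with 11507 to 29894 tags and 2311 deletions, none beside the AUA pattern. In CANX 4 of these 8 had a signal ending 26 to 80 nt downstream. The member farthest from an end, at 3951 nt with 54 deletions in 8376 tags, lay in coding sequence of another transcript and in a 3′UTR only of transcripts not typed as protein-coding.

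NUCKS1, which encodes a chromatin-associated nuclear protein, held 12 members in 3 clusters of a 5461-nt canonical 3′UTR. A cluster of 4 lay 4715 to 4763 nt from the next end with 1807 to 13362 tags, and a cluster of 7 lay 379 to 434 nt from it with 2616 to 11130 tags. The AUA pattern was beside 4 of the 7 and none of the 4. The leading NUCKS1 member had 592 deletions in 10722 tags (5.52%). The highest count of deletions at the NUCKS1 sites that were not members was 413, but their coverage reached 45702 tags, deeper than at any member.

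HSP90AA1, which encodes the inducible cytosolic chaperone HSP90 alpha, also held 12 members by the rule, yet none was in its canonical 3′UTR of 973 nt. All 12 were in coding sequence of other transcripts and in 3′UTRs only of transcripts not typed as protein-coding. They formed clusters of 7 and 5 with 13655 to 37805 tags and 0.108 to 1.65% deletions, and T was deleted at 4. The position of these 12 therefore goes against their label as internal 3′UTR sites.

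**Figure D5:**
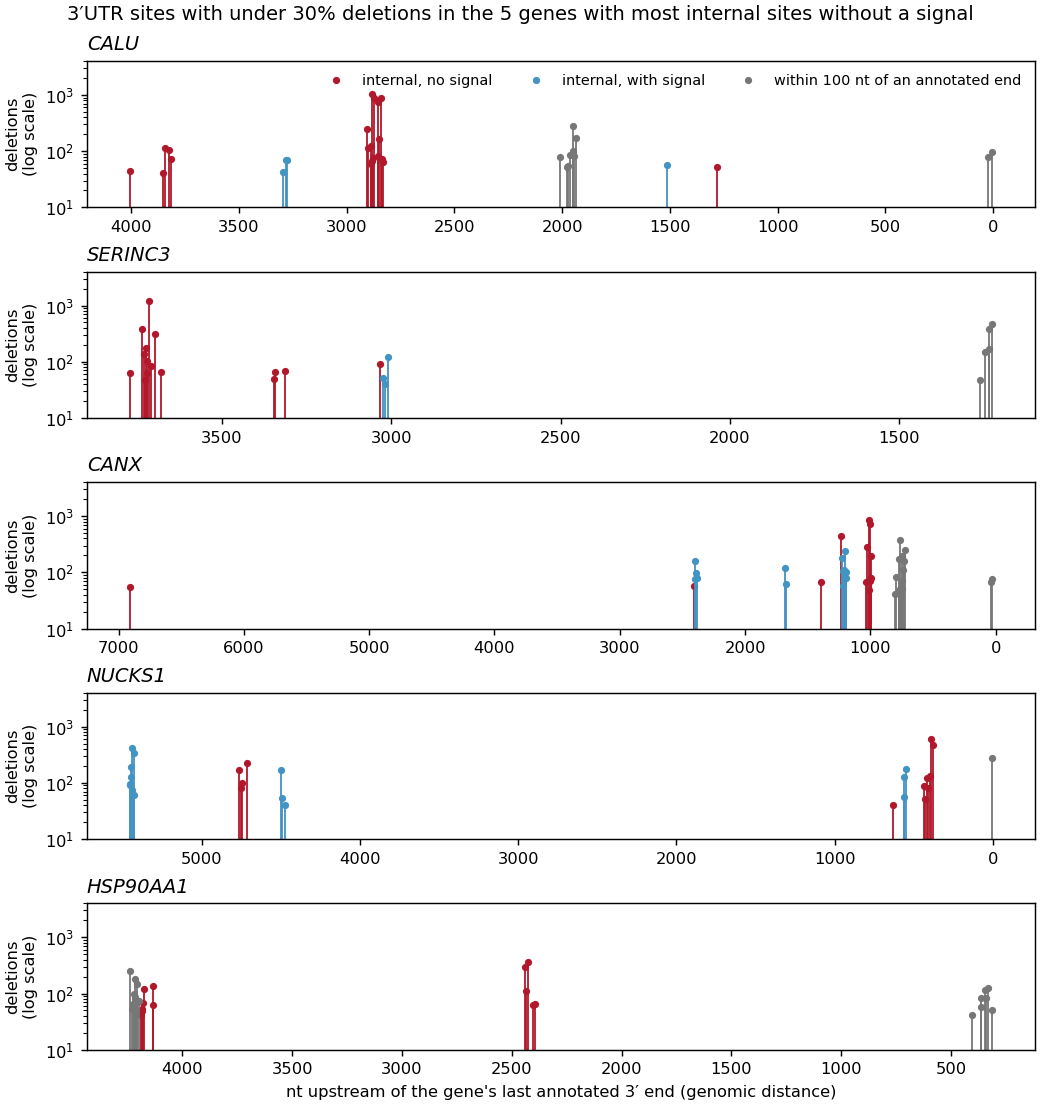
Deletions (log scale) at each 3′UTR site with the deletion in under 30% of tags, against genomic distance upstream of the last annotated 3′ end, in the 5 genes with the most members. Red marks the members, blue internal sites with a signal and grey sites within 100 nt of an annotated end. The cluster of 14 CALU members and the 11 of SERINC3 stand as narrow red groups. The HSP90AA1 members are in coding sequence of other transcripts.

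Of the 839 genes, 529 (63.1%) also had an end-proximal site under 30%, and in 156 (18.6%) every 3′UTR site under 30% was a member. Where both kinds were present, the most covered member had a median of 0.376 times the tags of the most covered end-proximal site (quartiles 0.127 and 1.04, n = 529 genes). It had more tags than any end-proximal site in 140 genes (26.5%), and more deletions in 136 (25.7%).

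Named sets of genes were then counted, as a description. Of the 5437 gene symbols (5439 gene identifiers) with any 3′UTR site under 30%, 15.4% held a member. Among regulators of mRNA decay and translation that bind 3′UTRs, 13 of 40 genes with such a site held one (32.5%, 24 members), led by ZFP36L1, a decay factor that binds AU-rich elements, with 339 deletions in 13377 tags (2.53%). QKI, an RNA-binding splicing and stability regulator, held 7, with up to 141 deletions in 10851 tags. Of the cleavage and polyadenylation factors, 3 of 11 held 1 member each (27.3%), CPSF2, CPSF6 and CSTF2T, with 41 to 55 deletions. The genes of the lists were not compared at equal 3′UTR length.

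Cell cycle and signalling genes followed with similar shares. Cyclins, CDKs and their inhibitors had a member in 9 of 28 (32.1%, 24 members), led by the CDK4 site above, and CCNI, a cyclin-family protein, had 661 deletions in 47425 tags (1.39%). RAS, MAP kinase and PI3 kinase genes had one in 9 of 26 (34.6%, 14 members), led by DUSP6, a MAP kinase phosphatase, with 365 deletions in 12683 tags (2.88%). RAB GTPases had one in 9 of 24 (37.5%, 22 members), led by RAB11B of recycling endosomes with 215 deletions in 3816 tags (5.63%).

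Integrin and matrix genes had a member in 7 of 25 (28.0%, 23 members), led by the TIMP3 site, and CCN1, a matricellular protein, had 662 deletions in 36695 tags (1.80%). In the TGF-beta list it was 5 of 22 (22.7%, 16 members), led by THBS1, thrombospondin 1, with 459 deletions in 36109 tags (1.27%), while SKI, a repressor of SMAD signalling, had 400 in 11694. In the VEGF and hypoxia list it was 5 of 15 (33.3%, 11 members), led by NRP1, a co-receptor of VEGF, with 152 in 5259 (2.89%), and VEGFA itself had 2 members with up to 114 in 8263. The study named the VEGF and TGF-beta pathways from these same sites, so their counts are no independent evidence.

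Of the 13 genes that the study took into its screen, chosen in part for RBMS3 sites in these samples, 5 held members (38.5%). The share over all genes with a 3′UTR site under 30% was 15.4%, and 3′UTR length was not matched. ENPP1, an ectonucleotidase, had 4, with up to 199 deletions in 8312 tags (2.39%) beside the AUA pattern and 15 nt upstream of an A-run. SOX4, a transcription factor, had 5, with up to 66 in 1568 tags. HMGB3, a chromatin protein, had 1 with 126 in 1178 (10.7%), and NRP1 had the 4 counted above. ALDH2, mitochondrial aldehyde dehydrogenase, had 1 member, 3483 nt from the next end, with 171 deletions in 3654 tags (4.68%, interval 4.04 to 5.41%) and a signal 26 to 80 nt downstream, and its other 2 sites had a signal in their window.

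TXNIP, the thioredoxin-interacting protein, held no member, since all 3 of its 3′UTR sites lay within 100 nt of an annotated end. BZW1, a regulator of translation initiation, held none either, as 3 of its 4 sites were internal with a signal and 1 had the deletion in 30% or more of tags. The RBMS genes held none. RBMS1 had 5 end-proximal sites, RBMS2 had 1 internal site with a signal, and both sites of RBMS3 had the deletion in 30% or more of tags.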

How the data were processed

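RBMS3 CLIP-seq was performed in MDA-MB-231 cells with 2 biological replicates. The authors appended molecular identifiers to the reads and used the CLIP Tool Kit to align to hg38, keep unique tags, pool replicates and call deletion sites, keeping sites by a false discovery rate of 10% and by a fold whose meaning is not given. Tool versions and the per-library depth are not given in the sources used here. The deposited values are counts per site, not normalized: pooled tags and tags with the deletion. Library synthesis used poly(A) tailing, oligo(dT) capture and oligo(dT) priming.

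The deleted base was taken as the centre of each 21-nt interval, counted from 1, and placed by strand on all GENCODE release 44 transcripts. Distances are genomic, to the nearest downstream end of the same gene, and sites in several genes went to the gene with the nearest end. Motif windows had 25 nt on each side. Qualifying positions were enumerated over merged 3′UTRs of the 839 member genes. With 1 pooled group no test was possible, and 95% Wilson intervals cover counting error only. Functions were tested on simulated data. The members and lists were chosen with earlier results of these data known. The text names the 5 genes with most members, the 10 members with most deletions, the 5 with the highest percentage among those with at least 100 deletions, members at the limits, the leading member of each list, TXNIP, ALDH2 and BZW1, and the 10 hexamers with the highest ratio among those in at least 100 windows. Other genes were named after their values were seen. Alternatives are listed in the closing section. Scripts ran in Python 3.11.15 with pysam 0.24.0, pandas 2.3.3, numpy 2.4.6 and matplotlib 3.10.9.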

Additional observations from a re-analysis of the deposited data

How the results depend on the processing

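The 4 values followed through the alternatives were the number of members (1625), the share beside the AUA pattern (25.05%), the share with a deleted T (76.8%) and the median distance to the next end (780 nt). Requiring at least 20 deletions changed none of them, since every member had at least 32, and requiring at least 50 gave a T share of 79.5%. Sites over 50 nt from an end numbered 2706, with the pattern at 21.7% and a median distance of 210 nt, and with over 300 nt the median was 1297 nt. With no signal within 50 nt the pattern was at 27.7% and the median was 906 nt. Barring the 11 further signal variants left 779 members with the pattern at 3.85%, T at 81.1% and a median of 668 nt, and the fall of the pattern follows from TATAAA and AATATA being parts of it. Taking 1 site per cluster gave 990 members and T at 81.7%, and 1 site per gene gave 839, T at 81.6% and 688 nt. The pattern was at 11% within 10 nt, and its core ATATA at 19.8% within 25 nt. At deleted bases unlike either neighbour T was 29.9%. Chosen after seeing the data, leaving out members with an A-run or signal downstream gave 751 members and the pattern at 34.4%, and leaving out those near a listed site with a signal gave the pattern at 27.5% and 929 nt. An upper limit of 10% deletions, ends without incomplete transcripts, ends of any gene, canonical 3′UTRs and sites of a single gene moved none of the 4 values beyond its interval or, for the number, beyond 1.5 times. No paired analysis was possible because the only group holds pooled replicates, and no replicate could be left out. A site may rest on 1 replicate, and libraries could not be compared by depth.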
